A study of Homo sapiens with 2 samples.

Results

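Readthrough genes are annotated genes whose transcripts join exons of 2 neighbouring genes, and their hyphenated names carry the symbols of both neighbours. Members were taken as the annotated genes of the deposited table whose name is 2 parts joined by 1 hyphen, with each part itself a gene of the table. This gave 67 of the 16645 annotated genes that had a read, with 132 partner genes. GENCODE release 29 (GRCh38) holds 125 genes with such a name. Of these, 93 had a read, and 26 of the 93 were left out because a partner had none. All 67 members overlap both partners on 1 strand and have a transcript that GENCODE tags as readthrough. Of the 212 annotated transcripts of the members, 205 carry that tag, 86 are typed protein coding and 84 as targets of nonsense-mediated decay.

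The data are Oxford Nanopore direct RNA reads of GM12878, a human B-lymphoblastoid line transformed with Epstein-Barr virus. Replicates 1 and 2 form 1 group, with no treatment named, and were made from depleted RNA with the SQK-RNA002 kit on FLO-MIN106D flow cells. They hold 1360368 and 1510998 reads, so 1 read is worth 0.735 and 0.662 CPM (counts scaled to a common total). The labels do not say whether the replicates were separate cultures, so every test measures only the difference between these libraries, which may be technical. All 8 B cell markers were read in both libraries (summed level 11854 and 11837 CPM). Of 6 markers of other lineages, ALB, HBG1 and GATA1 had no read, and the 6 together reached 5.15 and 13.2 CPM, most of it CD3E with 5 and 16 reads.

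Transcription normally ends after the polyadenylation signal of a gene, where the cleavage machinery cuts the nascent RNA and the polymerase is released. When the signal is passed, the polymerase can enter the next gene on the same strand, and splicing can join exons of the upstream gene to exons of the downstream gene. Such a transcript ends at the polyadenylation site of the downstream gene, so its 3′ part can be identical to an ordinary transcript of that gene. Direct RNA reads start at the 3′ end and often stop before the 5′ end.

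A readthrough transcript can be told from its partners at junctions that neither partner has. The sequences below show such junctions from GENCODE release 29 transcripts, 15 bases on each side, with the last bases of the 5′ exon in lower case and the first bases of the 3′ exon in capitals. Coordinates (GRCh38) are the exon bases on both sides of the intron. The first 4 belong to the members with most reads among those whose known model was read in both libraries. ANKHD1-EIF4EBP3, PPAN-P2RY11 and ISY1-RAB43 were added after the values were seen because they, with BOLA2-SMG1P6 and NME1-NME2, have most reads in junction runs that neither partner holds, and SENP3-EIF4A1 because it has most reads in all.
NME1-NME2 transcript 202, exons 4 and 5, chr17:51161272-51166827, plus strand: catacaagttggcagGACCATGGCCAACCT
RBM14-RBM4 transcript 203, exons 1 and 2, chr11:66617057-66646027, plus strand: gtgacgtggtgaaagGTGGGATGTGTGTGG
BOLA2-SMG1P6 transcript 203, exons 2 and 3, chr16:29446922-29454016, minus strand: gcttcagagacacagCTTGGATCCTAGCAT
RPL17-C18orf32 transcript 203, exons 5 and 6, chr18:49483771-49489359, minus strand: gcccagaagaaaaagTTGAGGAGCTCAAGC
ANKHD1-EIF4EBP3 transcript 203, exons 33 and 34, chr5:140539083-140542172, plus strand: actgatgcccagcagGCCAGTCTGCTTCCT
ANKHD1-EIF4EBP3 transcript 203, exons 34 and 35, chr5:140542281-140548906, plus strand: ctctcctaaccagagGCACCAGGATCATCT
PPAN-P2RY11 transcript 201, exons 12 and 13, chr19:10111022-10113633, plus strand: gggaaatggatcgagGTGCCAAGTCCTGCC
ISY1-RAB43 transcript 201, exons 11 and 12, chr3:129095169-129130088, minus strand: cagaaggctcctgggCTGCAGATCTGGGAC
SENP3-EIF4A1 transcript 201, exons 10 and 11, chr17:7571479-7572284, plus strand: ctgcaaactcactgtCCAGGGGAATCCTCC
Both sides of each junction are coding in the transcript shown. SENP3-EIF4A1 transcript 201 is typed as a target of nonsense-mediated decay, and the other transcripts shown as protein coding. In ANKHD1-EIF4EBP3 an exon that lies outside EIF4EBP3 exons follows the last ANKHD1 exon shown and is then joined to EIF4EBP3. In SENP3-EIF4A1 the 3′ exon shown starts outside the annotated exons of EIF4A1. Across the members, 47 of 67 have an annotated junction that runs directly from a donor of the upstream gene to an acceptor of the downstream gene. In 46 of the 47 such a junction reaches the first acceptor of a downstream transcript, and in 38 it leaves the last donor of an upstream transcript.

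Most readthrough genes had few reads. Of the 67, 63 had a read in replicate 1, 66 in replicate 2 and 62 (92.5%) in both. Members were kept only where they and both partners had a read, so this share is partly set by how they were chosen. Together they held 1896 of 1345957 reads of annotated genes in replicate 1 (0.141%, 95% Wilson interval 0.135 to 0.147%) and 3039 of 1494454 in replicate 2 (0.203%, 0.196 to 0.211%), a mean of 0.172% ± 0.0442 (SD, n = 2). These intervals, and limits given for a count of 0, include no error other than that of counting. The median member had 16 reads over both libraries, against 57 for the partners and 24 for all annotated genes. Under 20 reads were found for 34 members and 100 or more for 9, and the first 3 members held 46.1% of all member reads.

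SENP3-EIF4A1 was read most, at 351 and 578 CPM in replicates 1 and 2 (477 and 873 reads). It lies at chr17:7563287-7578715 on the plus strand and joins SENP3, a protease of the ubiquitin-like protein SUMO, to EIF4A1, the RNA helicase of the translation initiation complex. ARPC4-TTLL3 followed at 189 and 231 CPM (257 and 349 reads). Its partners code for a subunit of the actin-nucleating Arp2/3 complex and for a tubulin glycylase. RNASEK-C17orf49 stood at 69.8 and 149.6 CPM (95 and 226 reads), TMEM189-UBE2V1 at 81.6 and 111 CPM (111 and 168 reads) and ATP6V1G2-DDX39B at 88.2 and 105 CPM (120 and 158 reads). UBE2V1 is the catalytically inactive partner of the ubiquitin-conjugating enzyme UBC13, and DDX39B is a helicase of splicing and mRNA export. NME1-NME2, which joins the genes of 2 nucleoside diphosphate kinases, had 107 and 123 reads. The next members were HNRNPUL2-BSCL2 with 75 and 93 reads, RBM14-RBM4 with 46 and 78, TGIF2-RAB5IF with 44 and 79, RPS10-NUDT3 with 19 and 77, BLOC1S5-TXNDC5 with 38 and 43 and STX16-NPEPL1 with 31 and 46. All 12 were higher in replicate 2 in reads and in CPM.

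The readthrough share is the number of reads of a member divided by those of the member and both partners. Over all loci together it was 10.1% in replicate 1 (9.64 to 10.5%) and 14.8% in replicate 2 (14.4 to 15.3%). Over the 63 loci with at least 20 reads, its median was 11.6% and 16.98%, a mean of 14.3% ± 3.79 (SD, n = 2). This mean fell to 6.08% with genomic models left out, to 5.63% with models of 2 or more exons only, and to 0% with known models only. The share was higher in replicate 2 at 48 loci and lower at 15. Wilson intervals of the libraries did not overlap at 12 loci, all higher in replicate 2. No such count over other genes stands beside it, so it cannot be read as particular to these loci. A mean share above 50% was found at 6 loci and one under 10% at 25.

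Loci with a high share had few reads of at least 1 partner, which is partly set by the definition of the share. Few reads of a partner were also found at loci with a lower share. At TEN1-CDK3, with a share of 11.6% and 14.6%, CDK3 had 0 reads in replicate 1 and 1 in replicate 2. DNAJC25-GNG10, which joins a DnaJ-domain gene to a G protein gamma subunit gene, took 73.1% and 64.9% of its locus with 19 and 24 reads, while DNAJC25 had 2 and 8 reads and GNG10 had 5 and 5. TMED7-TICAM2, which joins a cargo transport gene to a gene for an adaptor of Toll-like receptor 4, took 66.7% and 70.4% with 16 and 19 reads. ZNF816-ZNF321P took 56.3% and 73.3% of only 16 and 15 locus reads. STX16-NPEPL1, named for a syntaxin of the trans-Golgi network and a putative aminopeptidase, took 56.4% and 64.8%. TRIM6-TRIM34 took 30.6% (11 of 36 reads) in replicate 1 and 75.9% (22 of 29) in replicate 2. ARPC4-TTLL3 took 42.5% and 57.7%, with TTLL3 at 4 reads in each library and ARPC4 at 344 and 252. The model categories, described below, moved most of these shares. With genomic models left out, the mean share fell from 68.5% to 7.14% at TMED7-TICAM2, from 64.8% to 0% at ZNF816-ZNF321P and from 60.6% to 22.1% at STX16-NPEPL1. With models of 2 or more exons only, it fell from 69.0% to 21.9% at DNAJC25-GNG10 and from 53.2% to 29.5% at TRIM6-TRIM34. The shares left rest on very few member reads. In replicates 1 and 2 these were 2 and 3 at DNAJC25-GNG10, 2 and 2 at TRIM6-TRIM34 and 1 and 0 at TMED7-TICAM2. At the other end, RPS10-NUDT3 took 0.497% and 1.79% of a locus in which RPS10, a protein of the small ribosomal subunit, had 3731 and 4146 reads. RPL17-C18orf32 took 0.0977% and 0.249% beside RPL17 with 3035 and 3574 reads. Members were above both partners in both libraries at 4 loci, above the downstream partner at 20 and above the upstream partner at 14.

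**Figure D1:**
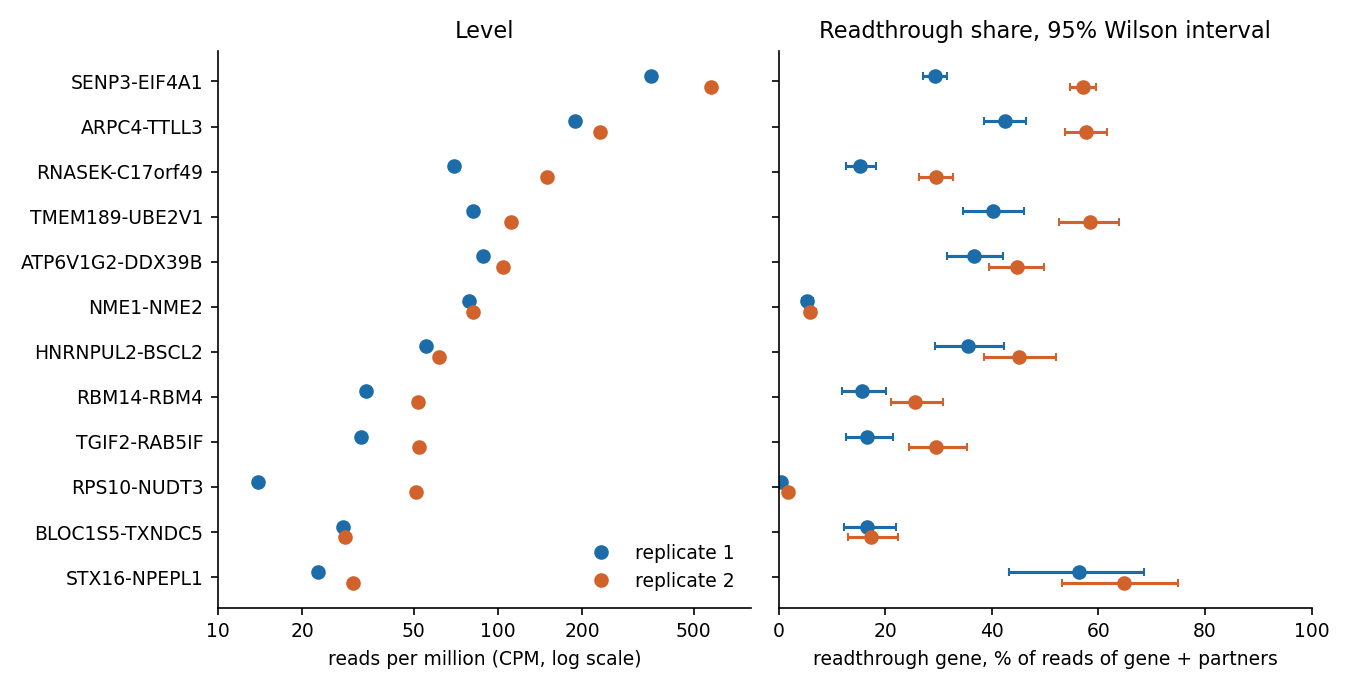
Level (left, CPM on a log axis) and readthrough share (right, % of the reads of the member and its partners, with 95% Wilson intervals) of the 12 members with the highest mean CPM, with 1 point per library. SENP3-EIF4A1 stands highest at 351 and 578 CPM, and NME1-NME2 and RPS10-NUDT3 have the lowest shares, at most 5.94% and 1.79%.

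Along the genome, the distance between the partners bore little relation to the share. In 9 pairs the partners overlap, and in the others the median gap is 6307 bases. Spearman's rho between gap and mean share was 0.04 over 54 loci, as a description. Between reads of a member and reads of its downstream partner rho was 0.46, and for the upstream partner 0.21, over 67 loci that share the same libraries and depth.

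To see how far the reads matched the annotated readthrough transcripts, they were divided by the category of their transcript model. Known models have the structure of a transcript in the annotation, and incomplete splice matches (ISM) hold only some consecutive junctions of one. NIC models combine annotated splice sites in a new way, NNC models have an unannotated splice site, and genomic models overlap the gene outside these categories. Of the member reads, known models held 1.74% (33 reads; 1.24 to 2.43%) in replicate 1 and 0.757% (23 reads; 0.505 to 1.13%) in replicate 2. In the partners they held 75.2% and 69.6%, and in other annotated genes 56.3% and 46.2%. The difference between members and partners in these pooled shares was -73.5 and -68.8 percentage points. Its mean was -71.2 ± 3.28 (SD, n = 2), far larger than the spread between the libraries. Pooled shares weigh most the genes with many reads, such as RPS10 and RPL17 among the partners. Per gene with at least 20 reads in both libraries together, the median known share was 0% in members and 47.4% in partners. In other annotated genes it was 20.2%.

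ISM models held 41.4% and 48.7% of the member reads and genomic models 38.6% and 40.0%. In the partners, genomic models held 2.63% and 4.31%. Among the 33 members with at least 20 reads, 30 (90.9%) had no read in a known model. The same was true of 12.2% of all 8898 annotated genes with that many reads and of 3 of 90 partners. Genomic models were the largest category in 31 members and ISM models in 29. Models with 1 exon were the only ones in 11 members and held over 50% of the reads in 32.

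**Figure D2:**
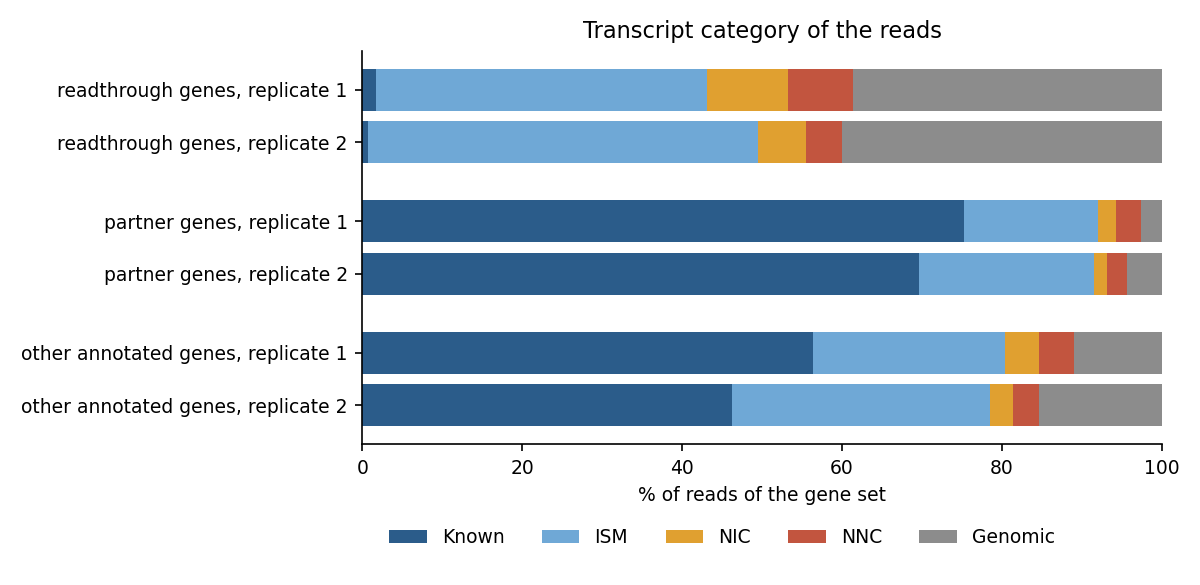
Share of reads (horizontal axis, %) in each category of transcript model for the readthrough genes, their partners and all other annotated genes, with 1 bar per library. Known models take 1.74% and 0.757% of readthrough gene reads but 75.2% and 69.6% of partner reads.

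Reads of known readthrough models were found in 8 members, 56 reads in all. BOLA2-SMG1P6, at chr16:29443230-29454651 on the minus strand, had 28 of them, of which the transcript printed above had 15 and 6 reads and a second known model of 1305 bases had 4 and 3. It was the 1 member in which known models were the largest category. BOLA2 codes for a protein of iron-sulfur cluster handling and SMG1P6 is a pseudogene. The NME1-NME2 transcript printed above had 6 and 11 reads, that of RBM14-RBM4 had 3 and 1, and that of RPL17-C18orf32 had 2 and 1. ST20-MTHFS, PTGES3L-AARSD1, SYS1-DBNDD2 and TEN1-CDK3 had 1 known read each. Near-identical copies of BOLA2 and of the SMG1 pseudogenes, and the likeness of NME1 to NME2, leave the assignment of these reads uncertain.

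ISM models were placed on the annotated junctions by their subtype and number of exons, since the table names the end of the transcript that each model keeps. A run was then looked for among the junctions of both partners. Runs that the downstream partner also holds had 587 of 1896 member reads in replicate 1 (31.0%, 28.9 to 33.1%) and 1107 of 3039 in replicate 2 (36.4%, 34.7 to 38.2%). They were found in 26 members, but SENP3-EIF4A1 alone had 1096 of these 1694 reads, and without it their mean share was 16.7% in place of 33.7%. Models with 1 exon, which have no junction, had 39.9% and 43.0%. Runs shared with the upstream partner had 2.43% and 2.07%. Runs that neither partner holds had 83 reads (4.38%, 3.55 to 5.39%) and 87 reads (2.86%, 2.33 to 3.52%), in 20 members, 11 of them in both libraries. NIC, NNC and spliced genomic models, 18.5% and 10.5% of the reads, could not be placed because the table gives no coordinates.

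**Figure D3:**
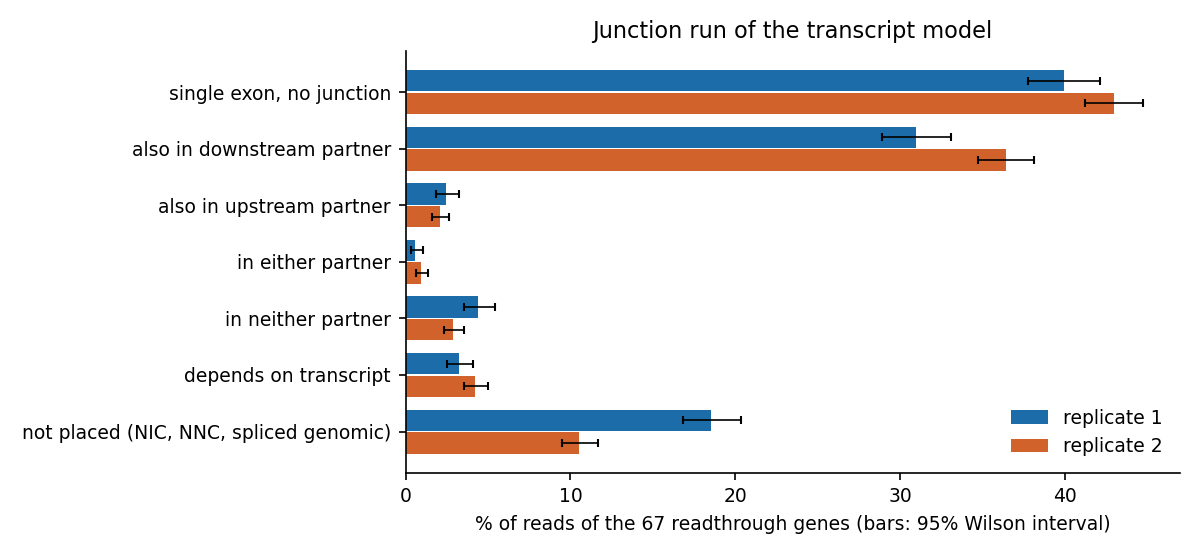
Share of readthrough gene reads (horizontal axis, %, with 95% Wilson intervals) by where the junctions of the model are annotated, for each library. Models with 1 exon and runs also held by the downstream partner take most reads, the latter mainly through SENP3-EIF4A1 (1096 of 1694 reads), and runs in neither partner take 4.38% and 2.86%.

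Runs that neither partner holds were led by ANKHD1-EIF4EBP3 with 17 and 18 reads, 35 of its 61 in all. Its partners code for an ankyrin-repeat protein and for a protein that binds the cap-binding factor eIF4E. All 35 lie in 14 ISM suffix models of 3 to 15 exons that keep the 3′ end and reach back past the junctions that EIF4EBP3 itself holds. BOLA2-SMG1P6 had 22 and 10 such reads and PPAN-P2RY11 had 12 and 9. PPAN takes part in ribosome biogenesis and P2RY11 is a receptor for ATP. NME1-NME2 had 7 and 13, ISY1-RAB43, named for a splicing factor and a Rab GTPase, had 6 and 13, and CHKB-CPT1B, named for a choline kinase and a carnitine palmitoyltransferase, had 5 and 6. By another count, 55 reads in 17 members lay in models with more exons than any annotated transcript of either partner, 20 of them in NME1-NME2 and 10 in BORCS8-MEF2B.

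SENP3-EIF4A1 differed from these loci. None of its 1350 reads was in its annotated transcript, which has 21 exons. None of its ISM reads was in a run that neither partner holds, while 192 reads in NIC and NNC models could not be placed. Runs of the EIF4A1 junctions held 1096 of the reads, all in ISM suffix models of 2 to 10 exons. Models of 4 exons had 53 and 139 reads, and models of 10 exons had 31 and 27. Under EIF4A1 itself, known models of 11 exons had 858 and 445 reads and suffix models of 10 exons 211 and 131. Of all suffix reads under either gene, 75.8% were therefore listed under the readthrough gene. Only 3 of its reads were in models with more exons than any transcript of SENP3 or EIF4A1, and 2 of those models, of 19 and 21 exons, were NIC.

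**Figure D4:**
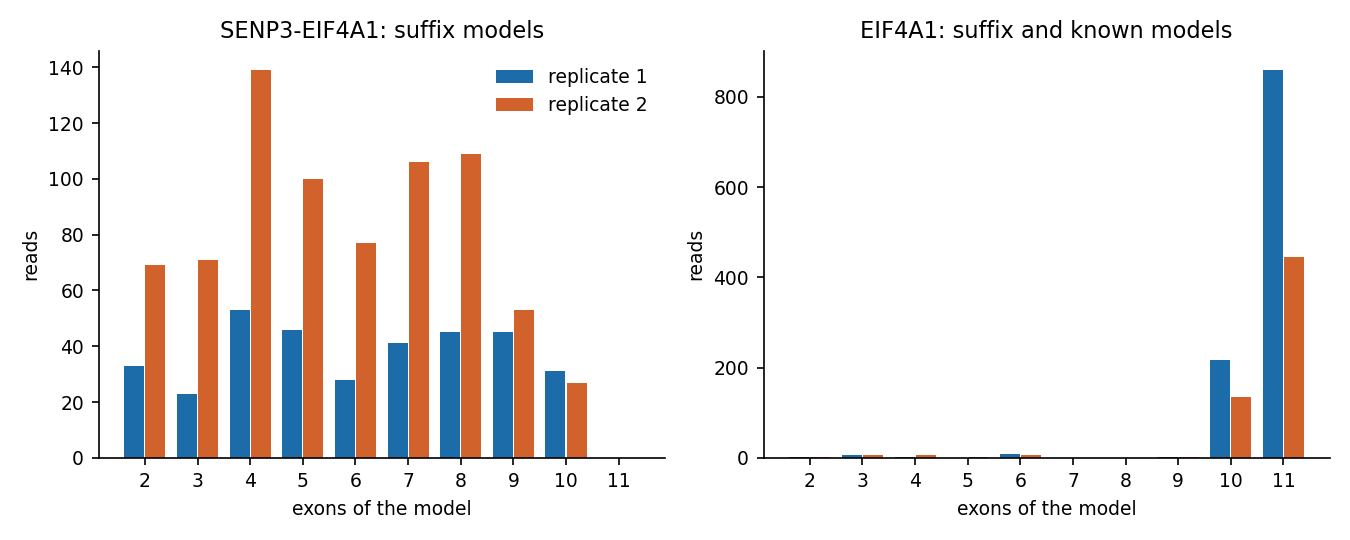
Reads (vertical axes, on different scales) by the number of exons of the model for SENP3-EIF4A1 suffix models (left) and for EIF4A1 suffix and known models (right), with 1 bar per library. Suffix models of the readthrough gene have 2 to 10 exons, while most reads shown for EIF4A1 are in models of 10 and 11 exons.

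How suffix reads were divided between readthrough gene and downstream partner varied between loci. Of 50 loci with such reads, 23 had more under the readthrough gene and 27 more under the partner. At ATP6V1G2-DDX39B, 275 suffix reads were listed under the readthrough gene and 76 under DDX39B, whose 11-exon known models had 122 and 81 reads. At RNASEK-C17orf49, 180 suffix reads were under the readthrough gene and 28 under C17orf49, and at BLOC1S5-TXNDC5 41 were under the readthrough gene and 7 under TXNDC5, a disulfide isomerase of the endoplasmic reticulum. Among the loci with more under the partner, TMEM189-UBE2V1 had 0 beside 81 under UBE2V1, RBM14-RBM4 had 24 beside 82 under RBM4, a splicing regulator, and NME1-NME2 had 13 beside 74 under NME2. The reads of NME1-NME2 lay mostly in 1 NIC model of 5 exons and 676 bases with 78 and 87 reads.

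Several of the best-read members rested on 1 model with a single exon. In ARPC4-TTLL3, 605 of 606 reads were in a genomic model of 1 exon and 2893 bases (256 and 349 reads). In TMEM189-UBE2V1, a genomic model of 593 bases held 109 and 158 reads. In HNRNPUL2-BSCL2, named for a nuclear ribonucleoprotein-like gene and the lipid droplet protein seipin, one of 1152 bases held 44 and 63. RBM14-RBM4, TGIF2-RAB5IF and STX16-NPEPL1 likewise had 85, 92 and 66 reads in 1 genomic model each, of 1666, 1805 and 3105 bases. With genomic models left out, the mean share fell to 0% at ARPC4-TTLL3 and to 0.857% at TMEM189-UBE2V1. A model with 1 exon carries no junction, so these reads cannot be told apart by splicing from other RNA of the locus.

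Reads of each gene were compared between the libraries by an exact binomial test, two-sided, with the library totals as the expected ratio, over the 10634 annotated genes with at least 10 reads and with Benjamini-Hochberg adjustment. It called 537 genes (5.05%), 2.72% higher and 2.33% lower in replicate 2. This balance of 289 higher and 248 lower depended on the processing: it was 259 and 295 with TMM scaling, 300 and 423 with genomic models left out, and 324 and 718 with known models only. Of 47 members tested, 4 were called, all higher in replicate 2. SENP3-EIF4A1 rose from 477 to 873 reads (log2 ratio 0.72, exact binomial adjusted p = 1.36e-16). RNASEK-C17orf49 rose from 95 to 226 (1.09, exact binomial adjusted p = 1.84e-08) and RPS10-NUDT3 from 19 to 77 (1.84, exact binomial adjusted p = 2.7e-06). TNFSF12-TNFSF13, which joins the genes of the cytokines TWEAK and APRIL, had no read in replicate 1 and 12 in replicate 2, all in 1 single-exon ISM model of 878 bases (exact binomial adjusted p = 0.0163). Against 3 reads, taken as the limit for its count of 0, the 12 reads were 3.6-fold higher in CPM. This ratio leaves out the counting error of the 12 reads and is not a lower limit.

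The log2 ratio of replicate 2 to replicate 1 was above 0 in 40 of the 47 members tested, with a median of 0.42. Over all genes tested it was above 0 in 51.1%, with a median of 0.01, and over 105 partners it was above 0 in 41, with a median of -0.11. At an unadjusted exact binomial p under 0.05 there were 14 members, 15 partners and 1681 genes in all. The libraries differ in the same direction in their share of ISM and genomic reads over all annotated genes, which rose from 24.0% to 32.3% and from 10.9% to 15.3%. The part of that difference in the members' ratios was not tested.

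**Figure D5:**
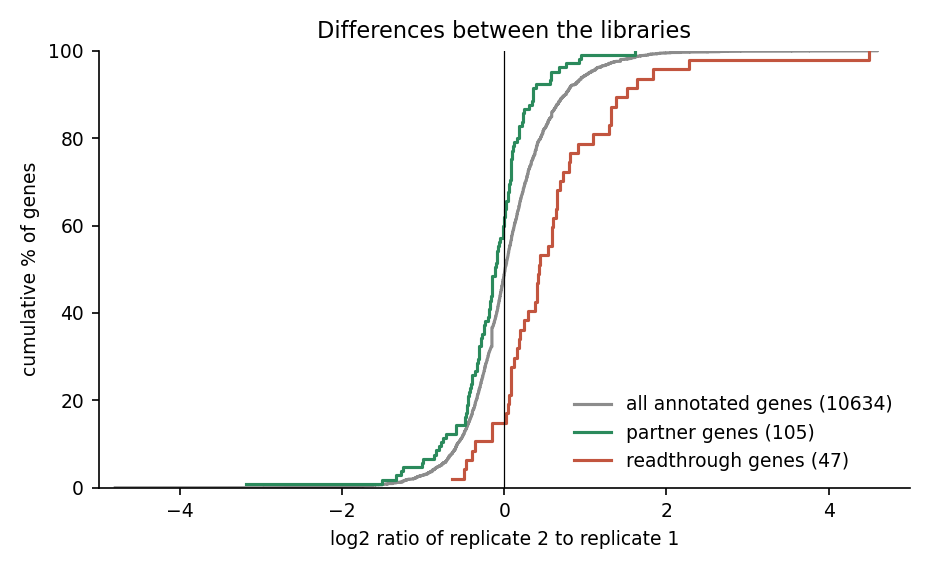
Cumulative share of genes (vertical axis, %) by log2 ratio of CPM in replicate 2 to replicate 1, for the genes tested among all annotated genes, partners and readthrough genes. The readthrough genes lie to the right, with a median of 0.42 against 0.01 for all genes. The point farthest right among them is TNFSF12-TNFSF13, whose ratio depends on the 0.5 reads added before the log because replicate 1 had none.

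The partners called numbered 7 of 105 (6.67%, beside 5.05% of all genes tested), all lower in replicate 2 (beside 2.33%). With known models only, 9 of 80 partners were called, beside 1042 of 5528 genes in all, and 3 of the 9 were higher. With genomic models left out, 9 of 95 partners were called, beside 723 of 8758 genes, and 1 of the 9 was higher. EIF4A1 fell from 1119 to 621 reads (log2 ratio -1.001, exact binomial adjusted p = 8.47e-43) while SENP3-EIF4A1 rose, and the reads of the whole locus were 1629 and 1528. ARPC4 fell from 344 to 252 reads beside ARPC4-TTLL3 with 257 and 349, and the locus had 605 reads in each library. Scaled to the library totals, the log2 ratio of the whole locus was -0.24 at SENP3-EIF4A1 and -0.15 at ARPC4-TTLL3. UBE2V1 fell from 135 to 82 beside TMEM189-UBE2V1 with 111 and 168. NME1 fell from 748 to 611, HSPE1, the mitochondrial co-chaperonin, from 569 to 459, TRIM34 from 20 to 2 and GIMAP5, a GTPase of lymphocytes, from 44 to 20. A log2 ratio above 0 was found in 40 of the 47 members tested, so a rise of the readthrough gene is not particular to these loci. The readthrough gene of each of the 7 had more reads in replicate 2, which is the larger library. It had 123 against 107 at NME1-NME2 (log2 ratio 0.05) and 17 against 5 at HSPE1-MOB4. At TRIM6-TRIM34 it had 22 against 11 and at GIMAP1-GIMAP5 7 against 1. SENP3-EIF4A1 passed the test and 5 of the others did not, while GIMAP1-GIMAP5 had too few reads to be tested.

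Genes of 3′ end cleavage and transcription termination were read in both libraries in 23 of 23 cases (80.6% of all annotated genes). The exact binomial test called 0 of them, beside 5.05% of all genes, also with TMM and DESeq2 scaling. An unadjusted exact binomial p under 0.05 was found for 4 of the 23, beside 1681 of the 10634 genes tested. With known models only, 2 of the 17 tested were called, both lower, beside 1042 of 5528 genes in all, 718 of them lower. The 2 were CPSF1 and CPSF3, both subunits of the cleavage and polyadenylation factor. The median log2 ratio of the list was 0.19, beside 0.01 for all genes, and -0.02 with genomic models left out, beside -0.08. The highest levels were those of SSU72, a phosphatase of the polymerase tail, with 157 and 138 CPM, PABPN1, the nuclear poly(A)-binding protein, with 138 and 146 CPM, and NUDT21, a subunit of cleavage factor I, with 90.4 and 104 CPM. The lowest were CSTF2T with 13.2 and 17.9 CPM, RBBP6 with 16.9 and 11.9 CPM and SCAF8 with 5.88 and 9.27 CPM. These levels are reads per gene, with no length correction.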

How the data were processed

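Members, lists and tests were chosen with earlier results of these data known. The authors deposited 1 table of whole-number read counts per transcript model, with 1 column per replicate and TALON categories, exon numbers and model lengths, per the file headers. The submitters' processing notes name hg38 and minimap2, and versions are not given in the sources used here. All 23533 known models match GENCODE release 29 in exons and length, which is the basis for using that release. Counts were summed per annotated gene, with genes that share a symbol kept apart by identifier, and divided by library totals (1360368 and 1510998 reads). Shares have 95% Wilson intervals. The exact binomial test, run with SciPy 1.17.1 and tested on simulated data, took genes with at least 10 reads and an adjusted p under 0.05. On the simulated data the required recovery of the smaller differences was first missed and then lowered, since false calls and median ratios were right. The log2 ratio adds 0.5 reads. Genes named are the 12 members with the highest CPM, the 6 with the highest readthrough share among loci with at least 20 reads and a member read in both libraries, those with most known reads (ties kept), every member called, and their partners. For the 3′ end list, the 3 highest and 3 lowest are named. Sequences of 4 members followed a rule. The other sequences, the junction runs, exon numbers, suffix comparison, known share per gene and median log2 ratios were devised after the table had been looked at, and members named for them were chosen after their values were seen. Alternatives used edgeR 4.0.16 (TMM) and DESeq2 1.42.0 for scaling factors only.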

Additional observations from a re-analysis of the deposited data

How the results depend on the processing

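No paired analysis was possible because both libraries belong to 1 group. Leaving out a replicate leaves 1 library, with no test: the share of annotated reads ranged from 0.141 to 0.203%, the known share of member reads from 0.757 to 1.74%, the difference from the partners from -73.5 to -68.8 points, the median readthrough share from 11.6 to 16.98%, single-exon models from 39.9 to 43.0% and downstream runs from 31.0 to 36.4%. With known models only, 4 members were detected in both libraries, members held 0.00383% of annotated reads and the median readthrough share was 0%. The test then called 1042 of 5528 genes, 0 of the 2 members tested and 9 of 80 partners. With genomic models left out, members held 0.121%, known models 2.05% of their reads, and the median readthrough share was 6.08%. With models of 2 or more exons only, the last 2 were 2.11% and 5.63%. Those tests use the totals of the models counted, a choice made after both had been seen. With totals of all reads, known models gave 1681 calls in all, 0 members and 13 partners, and leaving out genomic models gave 827 (723 with the totals of the models counted). Without SENP3-EIF4A1, an alternative added after seeing the data, single-exon models held 56.8% and downstream runs 16.7% of member reads. The 4 members called were higher under TMM and DESeq2 scaling too. With at least 20 reads TNFSF12-TNFSF13 was untested and CORO7-PAM16 was called, and without genomic models SPECC1L-ADORA2A was added. By the exact binomial test, UBE2V1 lost its call with known models only (log2 ratio -0.65 against -0.87, adjusted p = 0.0693), but not with totals of all reads (0.00283). GIMAP5 lost its call without genomic models (-1.06 against -1.27, adjusted p = 0.066), but not with totals of all reads (0.0349), and with known models only under both totals (0.944 and 0.559). The cause was not tested. The 4 members and 7 partners called in the main test kept their direction wherever they were tested. RPS10, called only with known models, did not. It was higher in replicate 2 against the totals of the models counted and lower against the totals of all reads. Over all genes, the median log2 ratio went from 0.01 to -0.01 with TMM, -0.08 without genomic models and -0.26 with known models only.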

Other observations

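The following members were picked after their values were seen. TMX2-CTNND1, which joins a thioredoxin-related gene to the gene of p120 catenin, had 27 and 47 reads, all 74 in genomic models. SYNJ2BP-COX16 had 2 and 13 reads in 1 genomic model, and its share was 1.38% and 8.5%. COMMD3-BMI1, whose downstream partner codes for a Polycomb protein, had 8 and 12 reads, all in genomic models. PPAN-P2RY11 had fewer reads in replicate 2, with 35 and 28 reads, and so was BOLA2-SMG1P6 with 27 and 19. BORCS8-MEF2B, whose downstream partner is a transcription factor of germinal centre B cells, had 17 and 30 reads and a share of 18.5% and 35.7%. In ISY1-RAB43, 6 reads lie in a genomic model whose length is listed as 1 base.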
